A study of Mus musculus with 5 samples.

Results

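Polycomb repressive complex genes were followed through 5 RNA sequencing libraries of mouse embryonic stem cells. The set holds 33 listed genes for known subunits of the complexes, out of 22267 genes that the deposited transcript table represents. Of the 33, 11 encode parts of Polycomb repressive complex 2 (PRC2), 21 encode parts of Polycomb repressive complex 1 (PRC1), and 1, Sfmbt2, is related to the fly PhoRC protein Sfmbt. They have 57 RefSeq transcripts in the table, and the values of a gene's transcripts were added. The cells were E14, a line of mouse embryonic stem cells whose strain the labels give as C57BL/6. A pair of libraries came from normal cells and 3 from cells whose label is Hk2 and Pkm2 overexpressed, after the glycolytic enzymes hexokinase 2 and pyruvate kinase M2. No promoter, vector or clone is given. Normal and Hk2/Pkm2-labelled cells were each sampled in culture with leukemia inhibitory factor (LIF), the cytokine that keeps such cells undifferentiated. Both were also sampled after 24 hours without LIF, to which LIF was then added according to the label, for a time that is not given. These 2 libraries are called the 24 hour libraries. Below, withdrawal and 24 hours without LIF stand for this treatment, the later addition of LIF included. The loss of LIF and its return cannot be told apart in these libraries. Hk2/Pkm2-labelled cells were also sampled after 40 days without LIF. Every group is 1 library, so no difference between a pair of libraries has a replicate check and none is given a p-value.

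PRC2 places methyl groups on lysine 27 of histone H3 through its catalytic subunit EZH2 or EZH1, and PRC1 places ubiquitin on histone H2A through RNF2 (RING1B) or RING1. Both complexes keep developmental regulators silent in embryonic stem cells, and their loss leaves these genes poorly controlled during differentiation. The complexes are built from alternative subunits. A PCGF protein decides which PRC1 is formed, CBX and PHC proteins mark the canonical form, and RYBP or YAF2 with factors such as KDM2B, BCOR or L3MBTL2 mark the variant forms.

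Levels are FPKM, a count of sequenced fragments corrected for transcript length and library size, so that they can be compared between genes. From the step between low FPKM values, the depth was estimated at 35250000 to 40750000 fragments per library, so that 1 fragment on a transcript of 1 kb is worth 0.0245 to 0.0284 FPKM. Of the 33 members, 31 have a value in all 5 libraries. Rbbp4 and Phc1 have a hyphen in place of a value in at least 1 library and were left out of sums, counts and medians. A mean of at least 1 FPKM was reached by 30 members, all of the 31 except Cbx8, and 27 of these were above 0 in every library. Phf1 and Rybp were listed at 0 in normal cells after 24 hours without LIF, and Pcgf5 in Hk2/Pkm2-labelled cells with LIF. Of all 9590 genes with such a mean, 749 were listed at 0 in a library, so a 0 can be a failed estimate, and no fold size is read from it below. Ratios with such a value still enter the counts, signs and medians, and a counted member with a 0 is named as such. The 2 labelled genes were less than 2-fold apart with LIF. Hk2 had 76.2 FPKM in the normal and 98.6 FPKM in the Hk2/Pkm2-labelled library, and Pkm, which encodes the M2 form, had 510 and 567 FPKM. After 24 hours, in the same order, Hk2 had 49.7 and 59.0 FPKM, while Pkm had 611 and 564 FPKM and was thus lower in Hk2/Pkm2-labelled cells. At 40 days Hk2 had 29.0 FPKM, its lowest level, and Pkm 495 FPKM.

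The labelled cell type was checked on marker genes. All 10 embryonic stem cell markers were above 1 FPKM in every library, with a summed level of 3519 and 3397 FPKM with LIF, 2970 and 2892 FPKM after 24 hours, and 1975 FPKM at 40 days. The summed level of 10 endoderm markers was 2.996 to 5.21 FPKM in the first 4 libraries and 108 FPKM at 40 days, where 6 of the 10 passed 1 FPKM, led by Dab2, Gata4 and Sox7, while Sox17, Hnf4a and Afp were listed at 0. The summed level of 10 trophoblast markers was 15.9 to 31.9 FPKM in the first 4 libraries and 82.6 FPKM at 40 days, of which Krt8 and Krt18 made up 21.6 and 54.2 FPKM. Tfap2c, Eomes and Ascl2 were each higher in at least 1 of the earlier libraries, and Cdx2, Elf5 and Gata3 were below 1 FPKM in all 5. The summed level of 10 fibroblast and feeder markers was 2.60 to 6.23 FPKM in the first 4 libraries and 9.04 FPKM at 40 days.

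The core of PRC2 was abundant in these cells. Eed, which reads the methyl mark and stimulates the enzyme, stood at 152 FPKM in normal and 182 FPKM in Hk2/Pkm2-labelled cells with LIF. After 24 hours without LIF it stood at 96.9 and 90.1 FPKM, and at 72.2 FPKM at 40 days. Both libraries with LIF were thus above the 3 others. Ezh2, the main methyltransferase, stood at 56.4 and 57.6 FPKM with LIF, at 46.6 and 33.7 FPKM after 24 hours and at 44.3 FPKM at 40 days. It too was highest in the libraries with LIF. Suz12, the scaffold that holds the complex together, lay between 48.0 and 59.8 FPKM with no order by LIF. Rbbp7, a histone chaperone that PRC2 shares with other chromatin complexes, lay between 99.5 and 104 FPKM in the first 4 libraries and stood at 134 FPKM at 40 days. Ezh1, the alternative methyltransferase with weaker activity, lay between 4.02 and 5.44 FPKM. Rbbp4, the close relative of Rbbp7, stood at 15.8 and 27.6 FPKM with LIF and 36.3 FPKM in normal cells after 24 hours, had a hyphen in Hk2/Pkm2-labelled cells after 24 hours and was listed at 0 at 40 days. Eed lies on chromosome 7 from 97103166 to 97129493 and Ezh2 on chromosome 6 from 47480273 to 47545340, both on the minus strand (mm9), and both are protein-coding.

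The accessory subunits of PRC2 split into a pair of forms. PRC2.1 carries MTF2, PHF1 or PHF19, Polycomb-like proteins that help the complex bind CpG-rich DNA. Mtf2 made up 91.8% to 95.9% of their summed FPKM and stood at 73.7 and 75.6 FPKM with LIF, 65.1 and 64.8 FPKM after 24 hours and 53.7 FPKM at 40 days. Both levels with LIF were again the highest. Phf1 was at most 3.79 FPKM and Phf19 at most 2.80 FPKM. PRC2.2 carries JARID2, which guides the complex to target genes, and AEBP2, which stabilises it. Jarid2 stood at 83.2 and 79.3 FPKM with LIF, 105 and 87.7 FPKM after 24 hours and 70.7 FPKM at 40 days. Aebp2 stood at 9.38 and 9.62 FPKM with LIF, 22.2 and 25.03 FPKM after 24 hours and 9.72 FPKM at 40 days. The higher Aebp2 values after 24 hours came from a single transcript, NM_009637, at 13.8 and 15.8 FPKM there and listed at 0 in the other 3 libraries, while the other expressed transcript, NM_001005605, lay between 8.399 and 9.72 FPKM throughout.

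**Figure D1:**
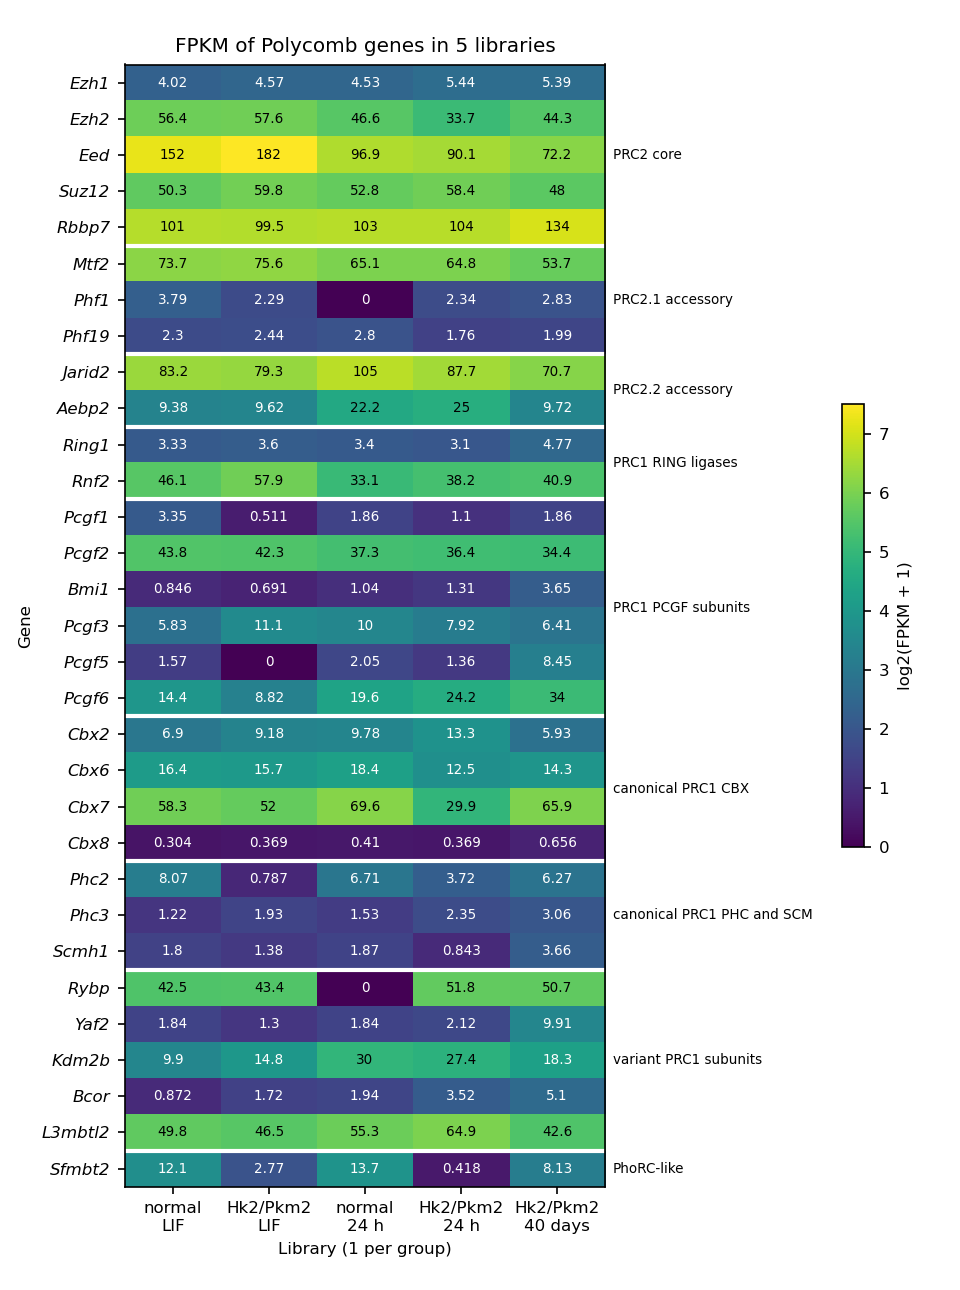
Levels of the 31 Polycomb genes with a value in all 5 libraries. Rows are genes grouped by complex, columns are libraries (1 per group, normal or Hk2/Pkm2-labelled), the printed number is FPKM and colour gives log2(FPKM + 1). Eed, Rbbp7, Jarid2 and Mtf2 are the brightest rows, and Cbx8 is the dimmest at 0.304 to 0.656 FPKM.

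In PRC1, the 2 ligases were unequal. Rnf2 made up 89.5% to 94.2% of their summed FPKM, at 46.1 and 57.9 FPKM with LIF, 33.1 and 38.2 FPKM after 24 hours and 40.9 FPKM at 40 days. The levels with LIF were above the 3 others. Ring1 lay between 3.10 and 4.77 FPKM, its highest level being that at 40 days.

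Among the PCGF subunits, which set the type of PRC1, Pcgf2 (MEL18) led in the first 4 libraries. Pcgf2 stood at 43.7 and 42.3 FPKM with LIF, 37.3 and 36.4 FPKM after 24 hours and 34.4 FPKM at 40 days. Pcgf6, the subunit of the variant PRC1.6 that also holds L3MBTL2 and binds germline genes, stood at 14.4 and 8.82 FPKM with LIF, 19.6 and 24.2 FPKM after 24 hours and 34.1 FPKM at 40 days. Pcgf6 was thus lowest in the libraries with LIF and highest at 40 days, and Pcgf2 highest with LIF and lowest at 40 days. Bmi1 (PCGF4), the other subunit of canonical PRC1, stood at 0.846 and 0.691 FPKM with LIF, 1.04 and 1.31 FPKM after 24 hours and 3.65 FPKM at 40 days. From the estimated depth Bmi1 rested on about 101 to 174 fragments in the first 4 libraries and about 508 at 40 days. With LIF, Pcgf5, a subunit of variant PRC1, had 1.57 FPKM in the normal library and was listed at 0 in the Hk2/Pkm2-labelled one. It stood at 2.05 and 1.36 FPKM after 24 hours and at 8.45 FPKM at 40 days. Pcgf3, its close relative, lay between 5.83 and 11.1 FPKM with no order by LIF. Pcgf1, the partner of KDM2B and BCOR in PRC1.1, was low at 0.511 to 3.35 FPKM.

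The CBX proteins read the methyl mark for canonical PRC1. Cbx7, the form known as dominant in embryonic stem cells, stood at 58.3 and 52.0 FPKM with LIF, at 69.6 FPKM in normal and 29.9 FPKM in Hk2/Pkm2-labelled cells after 24 hours, and at 65.9 FPKM at 40 days. The Hk2/Pkm2-labelled library after 24 hours was the low one. Cbx2, a form that compacts chromatin and takes over during differentiation, stood at 6.90 and 9.18 FPKM with LIF, 9.78 and 13.3 FPKM after 24 hours and 5.93 FPKM at 40 days. Cbx6 lay between 12.5 and 18.4 FPKM, and Cbx8 between 0.304 and 0.656 FPKM. The Cbx6 gene overlaps Npcd on the same strand, so its reads may include those of Npcd.

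The polyhomeotic proteins PHC1 to PHC3 and SCMH1 polymerise canonical PRC1 through SAM domains. For Phc1, the transcript with values throughout, NM_001042623, stood at 42.6 and 40.9 FPKM with LIF, 66.6 and 62.2 FPKM after 24 hours and 46.1 FPKM at 40 days. Its other transcript, NM_007905, had a hyphen in Hk2/Pkm2-labelled cells with LIF and in normal cells after 24 hours, and stood at 81.8 FPKM in Hk2/Pkm2-labelled cells after 24 hours and 90.6 FPKM at 40 days. Phc2 stood at 8.07 FPKM in normal and 0.787 FPKM in Hk2/Pkm2-labelled cells with LIF, at 6.71 and 3.72 FPKM after 24 hours and at 6.27 FPKM at 40 days. Its single low library was that of Hk2/Pkm2-labelled cells with LIF. Phc3 lay between 1.22 and 3.06 FPKM, and Scmh1 between 0.843 and 3.66 FPKM, both highest at 40 days.

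Among the subunits of variant PRC1, Rybp, which joins RING to the complex, lay between 42.4 and 51.8 FPKM in the 4 libraries where it was not listed at 0. Its relative Yaf2 stood at 1.84 and 1.296 FPKM with LIF, 1.84 and 2.12 FPKM after 24 hours and 9.91 FPKM at 40 days, so that the last library stood apart. Kdm2b, which brings PRC1.1 to unmethylated CpG islands, stood at 9.90 and 14.8 FPKM with LIF, 30.0 and 27.4 FPKM after 24 hours and 18.3 FPKM at 40 days. Both libraries after 24 hours were the highest. Bcor, a partner of PRC1.1 on the X chromosome, stood at 0.872 and 1.72 FPKM with LIF, 1.94 and 3.52 FPKM after 24 hours and 5.10 FPKM at 40 days. Which of the Bcor transcripts carried the signal differed between libraries. L3mbtl2 lay between 42.6 and 64.9 FPKM. Kdm2b overlaps Orai1 and L3mbtl2 overlaps Chadl on the opposite strand, and the library kit is of a kind that does not mark strand, so reads of the partners were not separated. The same holds for Mtf2 with Tmed5 and Rbbp7 with Txlng.

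Sfmbt2, an imprinted gene known for its role in the mouse placenta, stood at 12.1 and 13.7 FPKM in normal cells with LIF and after 24 hours. In Hk2/Pkm2-labelled cells it stood at 2.77 FPKM with LIF, 0.418 FPKM after 24 hours and 8.13 FPKM at 40 days. All 3 Hk2/Pkm2-labelled libraries were below both normal ones.

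**Figure D2:**
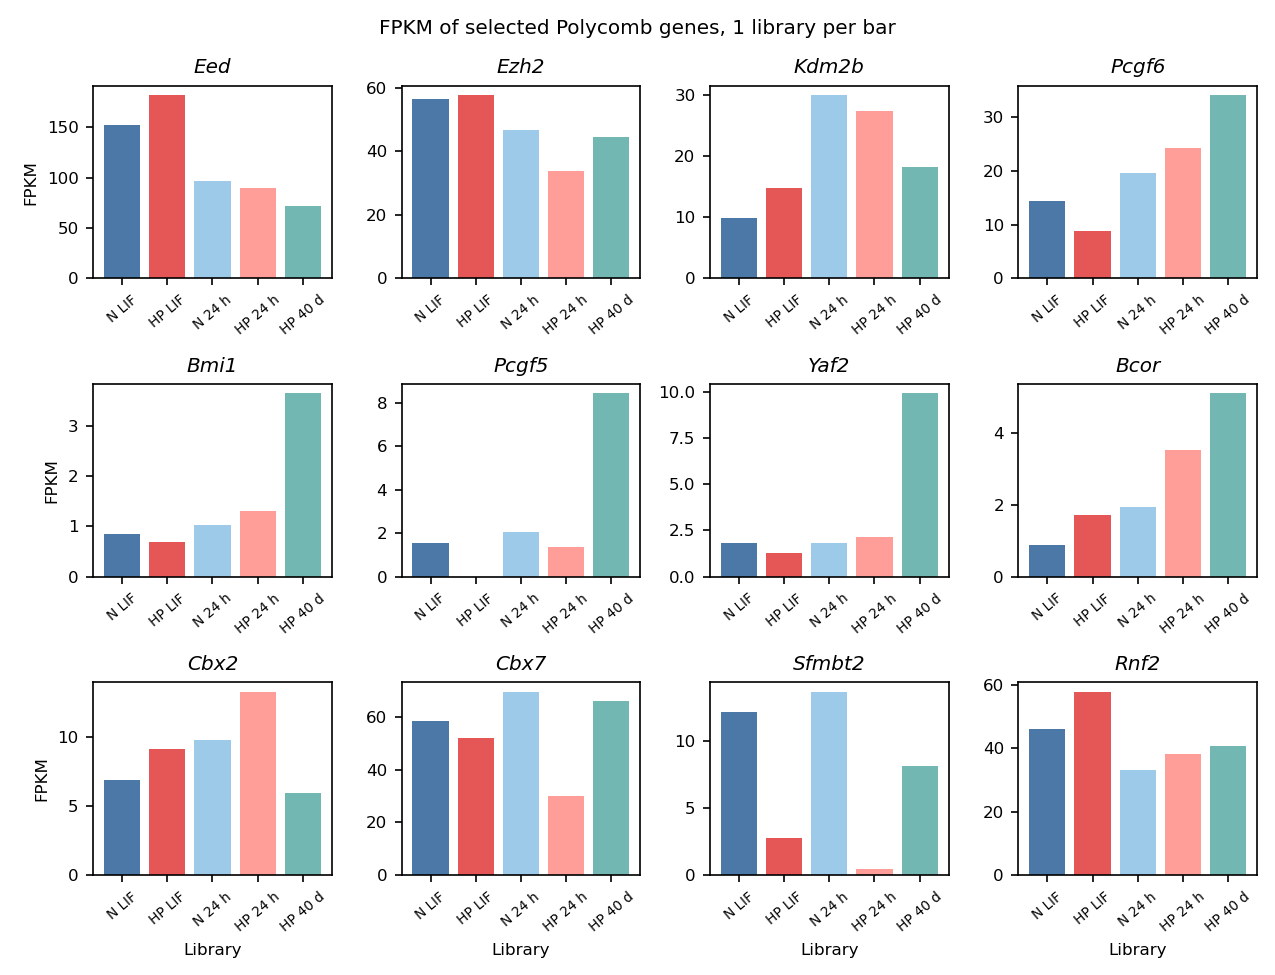
FPKM of selected Polycomb genes, 1 bar per library. N is normal, HP is Hk2/Pkm2-labelled, the vertical axes start at 0 and differ between genes, and no error bar is drawn because each group is 1 library. Eed is highest with LIF, Bmi1, Pcgf5, Yaf2, Bcor and Pcgf6 are highest at 40 days, and Sfmbt2 is lower in every Hk2/Pkm2-labelled library than in both normal ones.

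Differences between libraries are given as log2 ratios of FPKM + 1, which understate the change of low genes, and a difference of at least 2-fold on this scale was counted without a test. The 95% counting intervals below are for the plain FPKM ratio, come from the estimated fragments and cover counting error only. Normal and Hk2/Pkm2-labelled libraries with LIF each serve in several comparisons, so a single odd value in one of them recurs.

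After 24 hours without LIF, normal cells had a lower Eed level and higher Kdm2b and Aebp2 levels than with LIF. The log2 ratio was -0.64 for Eed, 1.51 for Kdm2b and 1.16 for Aebp2. Of the 30 members, 2 were at least 2-fold higher (Kdm2b and Aebp2), where 4.62% of all 9590 genes were, and 2 were at least 2-fold lower, where 5.51% of all genes were. Both lower members, Rybp and Phf1, were those listed at 0 after withdrawal. Aebp2 was 2-fold higher only through NM_009637, the transcript listed at 0 with LIF. With only its highest transcript, NM_001005605, the Aebp2 log2 ratio was -0.143 here and -0.054 in Hk2/Pkm2-labelled cells. The plain Kdm2b ratio was 3.03 with a counting interval of 2.88 to 3.19, and that of Eed was 0.638 with an interval of 0.619 to 0.657.

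In Hk2/Pkm2-labelled cells the same step gave log2 ratios of -1.01 for Eed, 0.85 for Kdm2b and 1.29 for Aebp2, the same directions as in normal cells. Members at least 2-fold higher numbered 4 of 30 (Aebp2, Pcgf5, Pcgf6 and Phc2), against 5.79% of all genes, and 2 were at least 2-fold lower (Eed and Sfmbt2), against 6.07%. Under quantile normalization the Eed log2 ratio was -0.963, just short of 2-fold. Pcgf5 was listed at 0 and Phc2 was at its lowest in the library with LIF that served as the base here. Pcgf6 had a log2 ratio of 1.36, and 0.42 in normal cells. Ezh2 had a log2 ratio of -0.76, and -0.27 in normal cells. Cbx7 had a log2 ratio of -0.78 here and 0.25 in normal cells, opposite in sign. Across the 30 members, 13 were above 0 in both cell types, 5 below 0 in both and 12 opposite, so that 60.0% had the same sign, as did 62.8% of all genes.

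Limma, a linear model fitted across all 9590 genes, estimated the effect of withdrawal over the 4 libraries of both cell types, with 1 residual degree of freedom. The estimates were -0.82 ± 0.13 for Eed, -0.53 ± 0.083 for Rnf2, 1.18 ± 0.23 for Kdm2b, 0.47 ± 0.12 for Cbx2 and 0.69 ± 0.16 for Bcor on the log2 scale (SE, 4 libraries), and none of these passed. The limma adjusted p over all genes was 0.345 for Eed and Rnf2 and between 0.324 and 0.953 for the 30 members. Limma called 0 of 9590 genes at an adjusted p of 0.05 (0.00%), and 1154 at an unadjusted p of 0.05 (12.0%). At the unadjusted level 6 of the 30 members were below 0.05, which were Aebp2, Bcor, Cbx2, Eed, Kdm2b and Rnf2. These p-values measure agreement over 2 pairs of libraries only, and nothing in the labels shows that those came from separate cultures of a line.

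At 40 days without LIF, the Hk2/Pkm2-labelled cells had higher levels of Yaf2, Pcgf6, Bmi1, Bcor and Pcgf5, all of PRC1, and a lower level of Eed than with LIF. The log2 ratio against LIF was 2.25 for Yaf2, 1.84 for Pcgf6, 1.46 for Bmi1 and 1.16 for Bcor, while Pcgf5 went from a value listed at 0 to 8.45 FPKM. Eed had a log2 ratio of -1.32. Of the 30 members, 7 were at least 2-fold higher (Bcor, Bmi1, Pcgf5, Pcgf6, Phc2, Sfmbt2 and Yaf2), where 14.0% of all genes were, and 1 was at least 2-fold lower, where 8.31% were. Of the 7, 6 are among the 19 PRC1 members counted, 1 is Sfmbt2 and none is among the 10 PRC2 members. That split was not tested. In the library with LIF that served as the base, Phc2 and Sfmbt2 stood at 0.787 and 2.765 FPKM. At 40 days they stood at 6.27 and 8.13 FPKM, below the 8.075 and 12.1 FPKM of normal cells with LIF. Pcgf1, Ring1, Phc3 and Scmh1, other PRC1 members of low level, stayed below 2-fold on the FPKM + 1 scale. In plain FPKM, however, Pcgf1 went from 0.511 to 1.86 and Scmh1 from 1.38 to 3.66. With a pseudocount of 0.1 these 2 were at least 2-fold higher as well. The plain ratio was 7.64 for Yaf2 with a counting interval of 6.19 to 9.43, and 5.28 for Bmi1 with an interval of 4.27 to 6.54. Bcor stayed below 2-fold under quantile normalization, at 0.89.

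Set against Hk2/Pkm2-labelled cells after 24 hours, the 40 day library had log2 ratios of 2.69 for Sfmbt2, 1.81 for Yaf2, 1.34 for Scmh1, 1.12 for Cbx7 and 1.01 for Bmi1. With Pcgf5 these were the 6 members at least 2-fold higher, against 12.1% of all genes. The base library here had the lowest Sfmbt2, Scmh1 and Cbx7 levels of all libraries. At 40 days Cbx7 stood at 65.9 FPKM, inside its range of 52.0 to 69.6 FPKM in the libraries other than that base. Aebp2 (-1.28) and Cbx2 (-1.05) were the 2 members at least 2-fold lower, against 5.78% of all genes. With only its highest transcript, Aebp2 had a log2 ratio of 0.067. Bmi1 stood at 0.68 under quantile normalization, below 2-fold. The plain Pcgf5 ratio of 6.20 in this comparison involves no value at 0, and its counting interval was 4.91 to 7.82. The 40 day library is also the one with the highest summed endoderm markers, the highest Krt8 and Krt18 levels and the lowest summed stem cell markers. The part of these markers in the ratios was not tested. In bulk RNA a change in the kinds of cells and a change of RNA per cell cannot be told apart. The Y-linked gene Uty stood at 0.369 FPKM at 40 days. In Hk2/Pkm2-labelled cells with LIF and after 24 hours it stood at 0.00973 and 0.0113 FPKM. Whether all Hk2/Pkm2-labelled libraries hold the same cells was not tested.

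Between Hk2/Pkm2-labelled and normal cells with LIF, the log2 ratios of the 10 PRC2 members with a mean of at least 1 FPKM ran from -0.542 for Phf1 to 0.260 for Eed. Ezh2 had a log2 ratio of 0.030 with LIF and -0.456 after 24 hours, and Phf19 0.058 and -0.459. Of the 30 members none was at least 2-fold higher, where 4.11% of all genes were. Those at least 2-fold lower were Phc2 (-2.34), Sfmbt2 (-1.80), Pcgf1 (-1.52) and Pcgf5 (listed at 0), 4 of 30, where 5.32% of all genes were. Pcgf1 rested on about 114 and 18 fragments, and its plain ratio was 0.153 with a counting interval of 0.0929 to 0.250. After 24 hours, the members at least 2-fold lower were Sfmbt2 (-3.37) and Cbx7 (-1.19), 2 of 30, where 5.18% of all genes were. The 2 that were higher, Rybp and Phf1, were listed at 0 in the normal library, where 4.19% of all genes were at least 2-fold higher.

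Across both cultures limma gave a cell type effect of -2.58 ± 0.52 for Sfmbt2, 0.58 ± 0.16 for Bcor, 0.39 ± 0.12 for Cbx2 and 0.26 ± 0.083 for Rnf2 on the log2 scale (SE, 4 libraries), and none passed. The limma adjusted p was 0.516 for Sfmbt2 and between 0.516 and 0.993 for all 30 members. Over all 9590 genes limma called 0 (0.00%) for cell type at an adjusted p of 0.05, and 918 (9.57%) at an unadjusted p of 0.05, among which were 2 of the 30 members, Bcor and Sfmbt2. The cell type ratios in the 2 cultures share no library. They were above 0 in both for 8 members, below 0 in both for 9 and opposite for 13, so that 56.7% had the same sign, against 62.0% of all genes. Outside the members, the Y-linked genes Uty and Ddx3y had cell type effects of -2.15 and -3.65. Whether the normal and Hk2/Pkm2-labelled cells differ in more than the label was not tested. A cell type ratio cannot tell the label from such a difference.

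**Figure D3:**
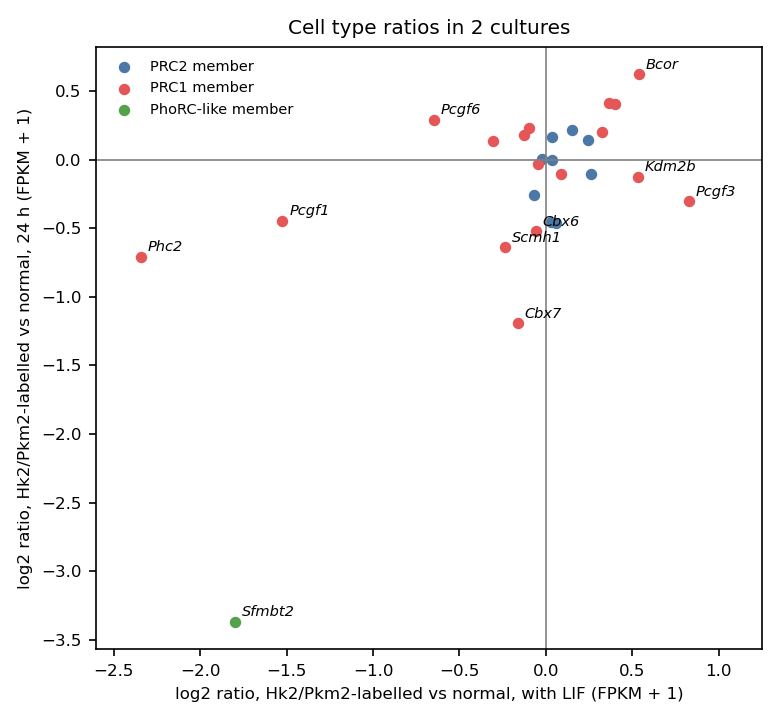
Cell type log2 ratios of FPKM + 1 with LIF (horizontal axis) and after 24 hours (vertical axis) for the 27 Polycomb genes above 0 in every library, coloured by complex. Sfmbt2 is far below 0 on both axes (-1.80 and -3.37), and Cbx7 is past -1 on the vertical axis alone (-1.19). The lowest PRC2 points on the vertical axis are Phf19 (-0.459) and Ezh2 (-0.456), and Phf1, Rybp and Pcgf5 are not drawn.

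As groups, PRC1 members had a higher median ratio than PRC2 members in each of the 4 pairs that compare cultures, also under each alternative run. All of these pairs but that of normal cells are built from the same Hk2/Pkm2-labelled libraries. The alternative runs reuse the same values, so neither counts as repeated support. In the pair of normal cells the PRC2 and PRC1 medians were closest, at 0.049 and 0.148. With LIF the median log2 ratio of Hk2/Pkm2-labelled against normal cells was 0.035 over 10 PRC2 members and -0.060 over 19 PRC1 members, beside -0.044 over all genes. After 24 hours the corresponding medians were -0.001, -0.036 and -0.021. For withdrawal they were 0.049, 0.148 and -0.005 in normal cells, and -0.005, 0.441 and 0.004 in Hk2/Pkm2-labelled cells. For 40 days against LIF the median was -0.183 for PRC2, 0.336 for PRC1 and 0.076 for all genes. For 40 days against 24 hours it was -0.140, 0.431 and 0.072. The summed FPKM of the measured members was 536 and 573 for PRC2 with LIF and 442 at 40 days, while that of PRC1 was 317 and 314 with LIF and 361 at 40 days. Rybp counts as 0 in the PRC1 sum of normal cells after 24 hours, and Phc1 and Rbbp4 are in neither sum. Because the transcripts of Phc1 are abundant, the sums do not rank the 2 complexes. The difference between the 2 medians has no test.

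**Figure D4:**
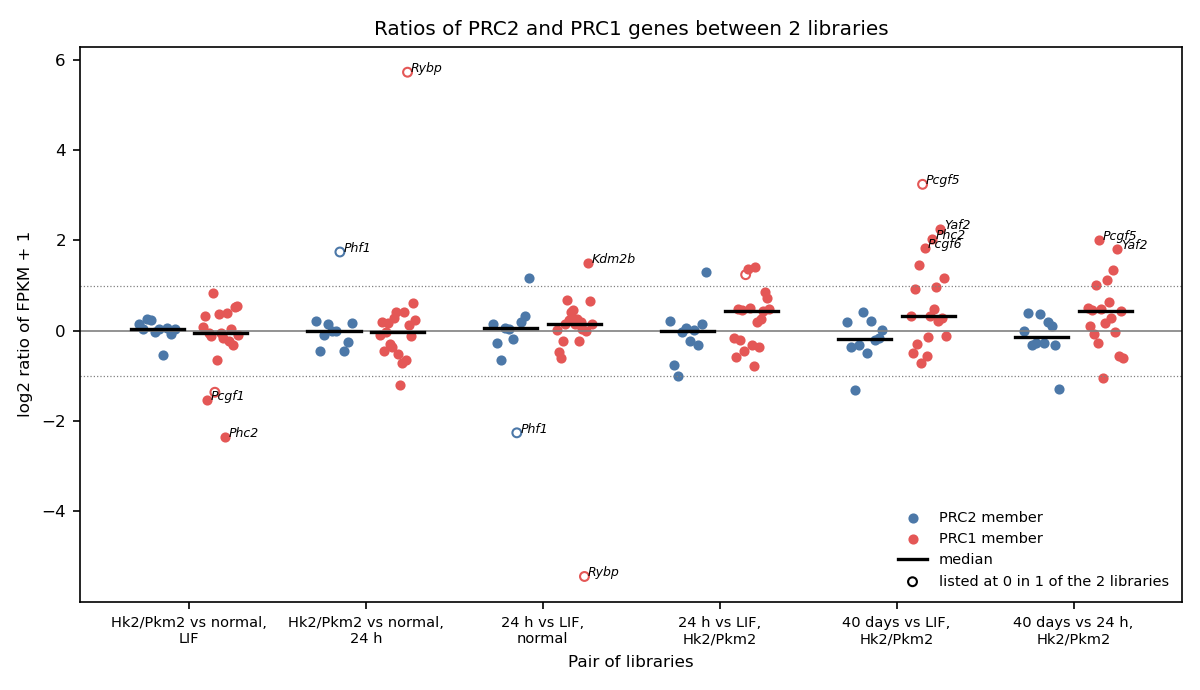
Log2 ratios of FPKM + 1 of PRC2 (blue) and PRC1 (red) genes for the 6 pairs of libraries. Each point is 1 gene, open points have a value listed at 0, black lines are medians, dotted lines mark 2-fold, and Sfmbt2 is not drawn because it belongs to neither complex. The PRC1 median lies above the PRC2 median in the 4 pairs that compare cultures (at 40 days, 0.336 against -0.183 relative to LIF and 0.431 against -0.140 relative to 24 hours). Of those pairs, the ones within Hk2/Pkm2-labelled cells share libraries.

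Alternative subunits of a position were set against each other as shares of their summed FPKM. Pcgf2 held 62.7% and 66.7% of the PCGF sum with LIF, 51.9% and 50.3% after 24 hours and 38.7% at 40 days. The share of Pcgf6 was 20.6% and 13.9%, then 27.3% and 33.5%, then 38.3%, so that at 40 days the 2 were level. Pcgf5 and Bmi1 had at most 2.84% and 1.81% in the first 4 libraries, and 9.51% and 4.11% at 40 days. The PCGF sum itself was 69.7 and 63.5 FPKM with LIF, 71.9 and 72.3 FPKM after 24 hours and 88.8 FPKM at 40 days.

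At the CBX position Cbx7 held 71.1%, 67.3% and 70.9% in the libraries with LIF and in normal cells after 24 hours, 53.3% in Hk2/Pkm2-labelled cells after 24 hours and 76.0% at 40 days. Cbx2 held 8.42%, 11.9%, 9.97%, 23.8% and 6.84% in the same order. The library with the lowest Cbx7 share was thus the one with the highest Cbx2 share. Ezh1 held 6.65% and 7.35% of the EZH sum with LIF, 8.87% and 13.9% after 24 hours and 10.8% at 40 days. Ezh1 itself differed less between libraries than Ezh2, in FPKM. Yaf2 held 4.15% and 2.90% of the RYBP and YAF2 sum with LIF, 3.93% in Hk2/Pkm2-labelled cells after 24 hours and 16.4% at 40 days.

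**Figure D5:**
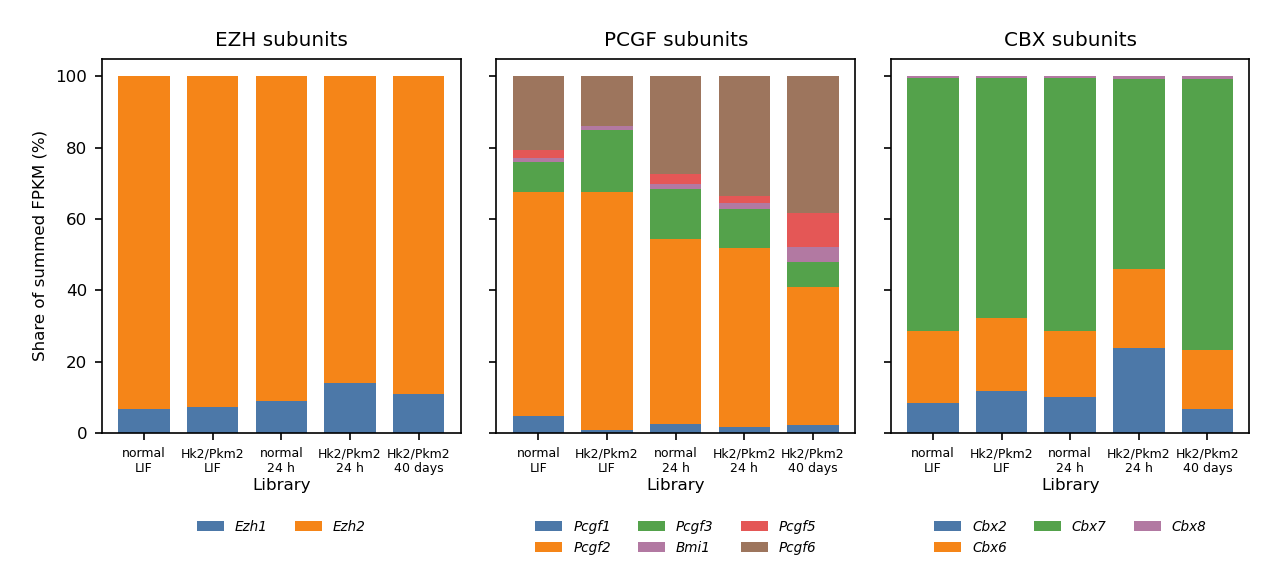
Share of each alternative subunit in the summed FPKM of its position (vertical axis, percent) in the 5 libraries, for EZH, PCGF and CBX subunits. Pcgf2 against Pcgf6 is 62.7% against 20.6% in normal cells with LIF and 38.7% against 38.3% at 40 days, and Cbx2 has its largest share, 23.8%, in Hk2/Pkm2-labelled cells after 24 hours.

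Other genes of the pathway were read from lists of known partners, antagonists and targets. Of 24 further partners of PRC1 and PRC2, 21 have a value and 16 a mean of at least 1 FPKM. At 40 days against LIF 1 (Mga) was at least 2-fold higher, against 14.0% of all genes, and 3 were lower (Epop, Hdac1 and Csnk2a1), against 8.31%, with a median of -0.196. Csnk2a1 was listed at 0 at 40 days. Epop, a PRC2.1 subunit of embryonic stem cells, stood at 304 and 254 FPKM with LIF, 128 and 139 FPKM after 24 hours and 67.9 FPKM at 40 days, so that, as for Eed, both libraries with LIF were the highest and the 40 day library the lowest. Mga, the DNA-binding partner of PCGF6 in PRC1.6, stood at 11.1 and 2.40 FPKM with LIF, 6.98 and 10.4 FPKM after 24 hours and 19.3 FPKM at 40 days. A list of 12 genes held enzymes that remove ubiquitin from H2A together with known partners of such enzymes. Of these 12, 10 had a mean of at least 1 FPKM. None of the 10 was 2-fold higher or lower at 40 days against LIF, beside the same 14.0% and 8.31% of all genes. Kdm6b, a demethylase that removes the PRC2 mark, stood at 0.907 and 2.01 FPKM with LIF, 7.01 and 1.44 FPKM after 24 hours and 6.47 FPKM at 40 days, with no shared order in the 2 cell types. Its X-linked relative Kdm6a lay between 6.68 and 13.7 FPKM, and the Y-linked Uty stood at 3.25 and 3.74 FPKM in normal cells and at 0.00973, 0.0113 and 0.369 FPKM in Hk2/Pkm2-labelled cells. Ddx3y, also Y-linked, showed this split too, with 11.8 FPKM in both normal libraries. Its Hk2/Pkm2-labelled values were 0.0225 (LIF), 0.013 (24 hours) and 1.79 (40 days). The reason for the low Y-linked levels was not tested. A further list of 15 genes pooled COMPASS and trithorax, counterparts of Polycomb, with demethylases of lysine 4 of histone H3, which are not such counterparts. Of these 15, 12 had a mean of at least 1 FPKM. At 40 days against LIF 1 of them was at least 2-fold higher (14.0% of all genes) and 2 lower (8.31%). The median over this mixed list was -0.720, beside 0.076 for all genes.

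Most known targets of Polycomb were low in every library. Of 39 Hox genes none reached 1 FPKM in the first 4 libraries and 1, Hoxd13, did at 40 days with 1.27 FPKM. Their summed level was 2.44 to 2.67 FPKM in the first 4 libraries and 9.58 FPKM at 40 days, and 6 of the 39 were listed at 0 there, against 10 to 18 before. Among 24 other measured target regulators, 4 to 6 reached 1 FPKM in a library. Gbx2, a homeobox factor of the naive state, was the highest of them and stood at 43.8 and 48.0 FPKM with LIF, 19.6 and 20.7 FPKM after 24 hours and 4.05 FPKM at 40 days. Irx3 was below 1 FPKM in the first 4 libraries and stood at 3.61 FPKM at 40 days. Cdkn2a, the cell cycle inhibitor locus that BMI1 is known to silence, lay between 6.57 and 9.69 FPKM.

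Promoter sequence was available for 29 of the 33 members, as 43 windows in the RefSeq table of build GRCm38.p6. Shown are the 250 bases before a start of Eed, lowest at 40 days, of Pcgf6, Bmi1 and Bcor, highest at 40 days, and of Sfmbt2, lower in every Hk2/Pkm2-labelled library. They were chosen after the values were seen, and other members that were highest at 40 days or after 24 hours, such as Pcgf5, Kdm2b and Aebp2, hold none of the motifs and are not shown. Capitals mark a match on either strand to 1 of 5 motifs searched, which were CACGTG (the E-box of MYC and MAX), TTTCCCGC and TTTGGCGC (E2F), TTCNNNGAA (STAT) and CCGGAAGT (ETS). The matches shown do not overlap another motif.
Eed, chr7:89980977-89981226, minus strand: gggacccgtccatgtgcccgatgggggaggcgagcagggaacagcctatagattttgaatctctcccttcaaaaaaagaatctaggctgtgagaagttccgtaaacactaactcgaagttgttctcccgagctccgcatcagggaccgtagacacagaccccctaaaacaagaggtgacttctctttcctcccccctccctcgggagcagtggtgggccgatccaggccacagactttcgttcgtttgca
Pcgf6, chr19:47050907-47051156, minus strand: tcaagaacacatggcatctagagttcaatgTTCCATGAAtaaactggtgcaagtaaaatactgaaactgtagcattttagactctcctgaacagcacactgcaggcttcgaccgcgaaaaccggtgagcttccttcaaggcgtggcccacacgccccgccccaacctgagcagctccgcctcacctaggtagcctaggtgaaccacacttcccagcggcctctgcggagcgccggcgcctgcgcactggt
Bmi1, chr2:18676768-18677017, plus strand: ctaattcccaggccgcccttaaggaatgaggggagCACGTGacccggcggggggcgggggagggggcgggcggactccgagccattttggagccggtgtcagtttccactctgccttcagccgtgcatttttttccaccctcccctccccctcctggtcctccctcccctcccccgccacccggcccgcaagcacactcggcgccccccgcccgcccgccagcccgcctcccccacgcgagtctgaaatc
Bcor, chrX:12160347-12160596, minus strand, the first of 2 listed starts: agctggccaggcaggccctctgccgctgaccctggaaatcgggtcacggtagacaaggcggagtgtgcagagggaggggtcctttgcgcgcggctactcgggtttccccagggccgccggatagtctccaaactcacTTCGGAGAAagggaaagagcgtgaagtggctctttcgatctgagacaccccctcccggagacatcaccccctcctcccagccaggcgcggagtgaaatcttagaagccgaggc
Sfmbt2, chr2:10370201-10370450, plus strand, the first of 2 listed starts: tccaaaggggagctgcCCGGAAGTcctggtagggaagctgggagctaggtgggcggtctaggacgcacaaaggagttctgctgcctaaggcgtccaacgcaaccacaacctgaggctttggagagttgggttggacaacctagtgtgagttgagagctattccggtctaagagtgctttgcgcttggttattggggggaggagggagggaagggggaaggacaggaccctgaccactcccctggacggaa
The Eed window holds none of the 5 motifs. The Pcgf6 window holds TTCNNNGAA from 220 to 212 bases before the start, a motif found in 7.02% of all 32851 windows in 5.69% of the 9802 windows of genes with a mean of at least 1 FPKM and in 4 of the 43 member windows (both of Bcor, and Pcgf6 and Phc1). In the Bcor window it lies from 113 to 105 bases before the start. The Bmi1 window holds CACGTG from 215 to 210 bases before the start, found in 6.02% and 8.76% of these windows and in 7 of the 43 member windows (Bmi1, Cbx6, Cbx8, Pcgf2, Phc2, Phc3 and Rbbp4). The Sfmbt2 window holds CCGGAAGT from 234 to 227 bases before the start, found in 2.88% and 6.60% of windows and in 1 of the 43 member windows. The other shares, in the same order, were 0.895% and 1.89% for TTTCCCGC, with 2 member windows (Phf19 and Suz12), and 0.417% and 0.888% for TTTGGCGC, with no member window. Member windows were rich in CpG, with a median observed to expected ratio of 0.728, against 0.373 for all windows and 0.750 for those of genes with a mean of at least 1 FPKM. A match is a description of letters and not a bound site, and which start the cells used is not known from these data.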

How the data were processed

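mRNA libraries made with a TruSeq RNA kit were sequenced from 5 samples, per the labels' protocols. The deposited FPKM values were made by the authors with TopHat2 2.0.7 and Cufflinks 2.0.2 on mm9, per the submitters' processing notes, with further settings not given in the sources used here. Gene symbols came from the accessions of a GRCm38.p6 RefSeq annotation, which held 28066 of the 28698 transcripts, and FPKM was summed per gene with suffixed copies included. A hyphen in place of a value removed 337 genes. Gene coordinates are from GENCODE vM1 on NCBIM37 (mm9). Ratios used log2(FPKM + 1) and genes with a mean of at least 1 FPKM (9590). Limma 3.58.1 (R 4.3.3, eBayes with trend, Benjamini-Hochberg adjustment over all genes) was fitted with cell type and culture as terms to the 4 libraries with LIF or after 24 hours. Depth came from the step of low values of genes with 1 transcript longer than 1500 bases. The named genes were all members, and up to 4 genes of each other list with the largest ratios, besides genes named after their values were seen. The members and lists were chosen with earlier results of these data known. Alternatives changed the pseudocount, filter, scaling, transcripts, zeros, copies and the limma trend.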

Additional observations from a re-analysis of the deposited data

Results flagged for a closer look

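Some members had ratios of opposite sign in the 2 cell types or the 2 cultures, with at least 1.5-fold in one and 1.1-fold in the other on the FPKM + 1 scale, and no value at 0. With 1 library per group none of these differences was tested. For withdrawal, the log2 ratio in normal and then Hk2/Pkm2-labelled cells was -0.605 and 0.474 for Pcgf1, a difference of 1.08. For Pcgf3 it was 0.688 and -0.443, a difference of -1.13. For Cbx7 it was 0.252 and -0.780, a difference of -1.03. For Phc2 it was -0.236 and 1.40, a difference of 1.64, and the low library was Hk2/Pkm2-labelled cells with LIF. For Sfmbt2 it was 0.160 and -1.41, a difference of -1.57. For cell type, the log2 ratio with LIF and then after 24 hours was 0.828 and -0.304 for Pcgf3, a difference of -1.13, and -0.647 and 0.289 for Pcgf6, a difference of 0.937.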

How the results depend on the processing

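No paired analysis was possible because each group has 1 library and the labels give no replicate numbers, and limma used cell type and culture as terms instead. Of 34 member ratios at least 2-fold, 34 stayed so with a pseudocount of 0.1, without a filter and without suffixed copies, 31 under quantile normalization (not Eed for withdrawal in Hk2/Pkm2-labelled cells, and not Bcor and Bmi1 at 40 days) and 31 with only the highest transcript of a gene. The last 3 were Aebp2, whose log2 ratio became -0.143 and -0.054 for withdrawal in normal and Hk2/Pkm2-labelled cells and 0.067 for 40 days against 24 hours. Some runs also added members at 2-fold. A pseudocount of 0.1 added Bcor, higher for withdrawal in normal cells, and Scmh1, lower for cell type after 24 hours. It also added Pcgf1 and Scmh1, higher for 40 days against LIF. The highest transcript added Bcor and Kdm2b higher and Ezh2 lower for withdrawal in Hk2/Pkm2-labelled cells. For 40 days against LIF it added Kdm2b, higher. With only the highest transcript the PRC2 median became -0.057 for withdrawal in normal cells and 0.027 for 40 days against 24 hours, and the PRC1 median 0.473 for 40 days against LIF. Without genes listed at 0, members at least 2-fold different numbered 2 in place of 4, both for cell type after 24 hours and for withdrawal in normal cells, and the PRC2 median for 40 days against 24 hours was -0.267. Quantile normalization gave -0.251 for that median and 0.128 for the PRC1 median, and moved the median of all genes there from 0.072 to -0.053. For 40 days against LIF it moved the median of all genes from 0.076 to -0.035. The causes were not tested. The limma counts were 0 under every alternative run. Leaving out only the hyphen transcript, which brings Phc1 in, was chosen after seeing the data and kept all 34 ratios. At the estimated depth Pcgf1 rests on at most about 114 fragments in a library and Cbx8 on at most about 91, which limits their ratios.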

Other observations

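The transcripts of some members had different orders across the libraries, given as values only, since the split of fragments between transcripts is an estimate. For Kdm2b, NM_001003953 stood at 2.85 and 4.21 FPKM with LIF in normal and Hk2/Pkm2-labelled cells, 15.9 and 15.3 FPKM after 24 hours and 13.8 FPKM at 40 days, while NM_013910 stood at 7.05 and 10.6 FPKM, 14.1 and 12.1 FPKM, and 4.47 FPKM. At 40 days the first was above and the second below both of its levels with LIF. For Ezh2, NM_007971 stood at 50.6 and 57.6 FPKM with LIF, 39.8 and 26.03 FPKM after 24 hours and 44.3 FPKM at 40 days, while NM_001146689 lay between 5.74 and 7.66 FPKM in 3 libraries and was listed at 0 in Hk2/Pkm2-labelled cells with LIF and at 40 days. Of the 57 member transcripts, 13 were listed at 0 in all 5 libraries.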
